A study of Mus musculus with 19 samples.

Results

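The G1 cell-cycle genes described here are the D cyclins *Ccnd1*, *Ccnd2* and *Ccnd3*, the E cyclins *Ccne1* and *Ccne2*, their kinases *Cdk2*, *Cdk4* and *Cdk6*, and the inhibitors *Cdkn1b* and *Cdkn1c*. They are the D and E cyclins, the kinases these activate, and the CDK inhibitors of the Cip/Kip family other than p21. They make up 10 of the 51912 genes counted and were chosen by name, with earlier results of these data known. All 10 passed the filter on low counts in each comparison. Their expression was measured in bulk E13.5 mouse cerebral cortex by RNA-seq with unique molecular identifiers, with 1 library per embryo.

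Ctrl embryos (n = 7) are labelled only as controls, and their alleles are not detailed. cKO-E embryos (n = 5) carried *Emx1* Cre/+ and *Ino80* fl/fl, so that the chromatin remodeler INO80 was deleted. dKO-E embryos (n = 7) carried *Emx1* Cre/+, *Ino80* fl/fl and *Trp53* fl/fl, so that p53 was deleted as well. All embryos had a mixed C57BL/6 and 129 background. *Emx1* Cre acts in cortical neural progenitor cells (NPCs) and the cells they generate, and spares interneurons, microglia and endothelium, which therefore kept intact alleles in both mutants.

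In G1, D cyclins bind CDK4 and CDK6, and the resulting kinases phosphorylate the retinoblastoma (RB) family of pocket proteins, which releases E2F transcription factors. E2F factors turn on the E cyclins and the genes of DNA synthesis, and cyclin E with CDK2 completes the passage into S phase. The Cip/Kip inhibitors p27 (*Cdkn1b*) and p57 (*Cdkn1c*) restrain these kinases and are known for their role when cortical progenitors leave the cell cycle to become neurons, while cyclin D2 is known as the major D cyclin of cortical NPCs.

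The libraries held 820915 to 8095810 counts on genes (median 2952788). Counts over the whole of *Ino80*, which include exons outside the deleted part and therefore do not check the deletion, were 111 to 129 CPM (counts scaled to a library total of 1000000 after TMM adjustment) in ctrl, 139 to 182 CPM in cKO-E and 155 to 197 CPM in dKO-E. *Trp53* was lower in dKO-E than in ctrl (log2 fold change -0.36, SE 0.10, adjusted p = 0.0196 by edgeR's quasi-likelihood test), and *Cdkn1a*, the p53 target that encodes p21, was at 8.26 to 11.8 CPM in cKO-E against 0 to 1.62 CPM in ctrl and 0 to 1.39 CPM in dKO-E. The batches held 4, 3 and 0 ctrl, 3, 2 and 0 cKO-E, and 4, 2 and 1 dKO-E embryos. Of the cKO-E embryos 4 were female, of the dKO-E embryos 5 were male, and no litter gave both mutants. Between the mutants, genotype and litter therefore cannot be told apart. dKO-E came from 2 litters, of which only litter 1 also gave ctrl embryos, so that outside that litter the dKO-E genotype and the litter cannot be told apart.

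In ctrl cortex the members spanned a wide range of levels. Per kilobase of exon, *Ccnd2* was the highest at 77.1 ± 10.2 CPM per kilobase (SD, n = 7), followed by *Cdk4* at 31.6 ± 3.01 CPM per kilobase, and the ranges of these genes overlapped neither each other nor that of the next gene. *Cdkn1b*, *Cdkn1c*, *Cdk6*, *Ccnd1*, *Ccne2*, *Ccne1* and *Cdk2* followed in that order, from 17.8 ± 2.25 CPM per kilobase for *Cdkn1b* to 3.51 ± 0.945 CPM per kilobase for *Cdk2*, and each overlapped its neighbour in the order. *Ccnd3* was the lowest at 1.85 ± 0.246 CPM per kilobase and lay below the range of *Cdk2*. In both mutants *Ccnd2* and *Cdk4* stayed first and second without overlapping each other or the third gene, and *Ccnd3* stayed last. With the length of the longest transcript in place of all exons, *Cdk6* moved from the fifth to the third place in ctrl and *Cdk2* passed *Ccne1*, which became the last in cKO-E.

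**Figure D1:**
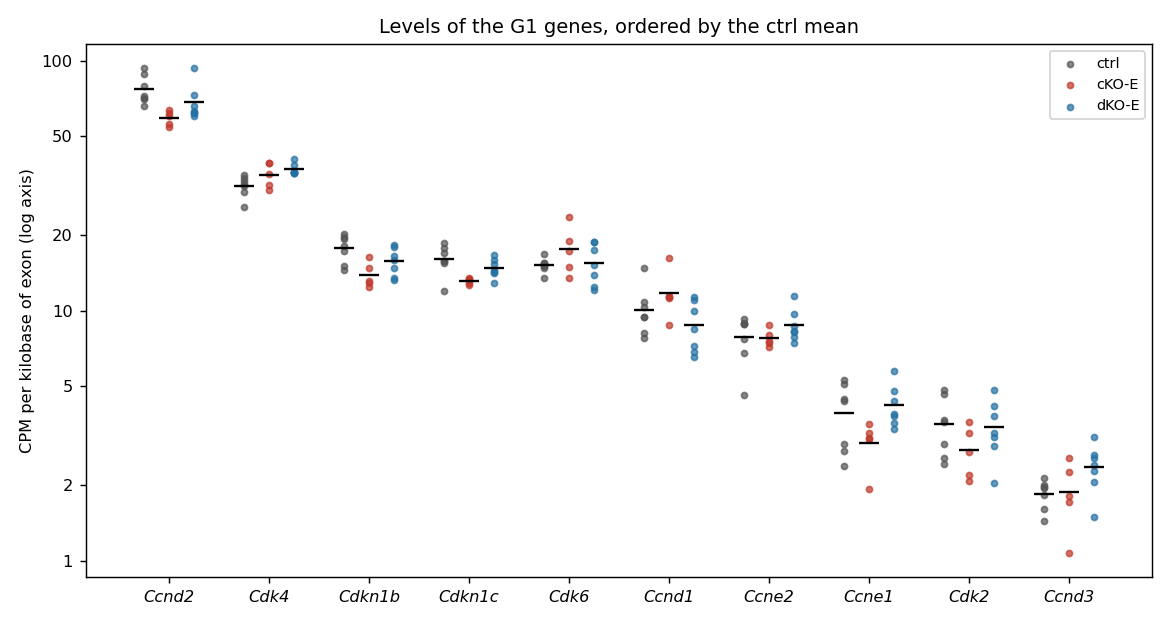
CPM per kilobase of exon on a log axis for each of the 10 genes, ordered by their ctrl mean, with 1 point per library (7 ctrl, 5 cKO-E, 7 dKO-E) and a black line at the group mean. *Ccnd2* leads in all 3 groups, with a ctrl mean of 77.1, and *Ccnd3* is last, with a ctrl mean of 1.85.

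Against ctrl, a gene was called at an adjusted p under 0.001 by edgeR's quasi-likelihood test. The threshold is that of the study but the test is not, and 0 of the 10 members were called in either mutant. At that threshold 3.38% of all 11660 genes were called in cKO-E and 2.58% of all 11381 genes in dKO-E. At an adjusted p under 0.05, *Ccnd2* and *Cdkn1b* were lower in cKO-E, where 17.2% of all genes passed (7.31% higher and 9.88% lower), and *Cdk4* was higher in dKO-E, where 15.5% passed (5.45% higher). At an unadjusted p under 0.05 there were 3 members in cKO-E and 3 in dKO-E, against 29.8% and 29.6% of all genes. DESeq2 also called none at 0.001. By edgeR's likelihood-ratio test, which the study used, *Cdkn1b* was called in cKO-E (adjusted p = 0.000826). The quasi-likelihood test with batch as a covariate called *Ccnd2* in cKO-E (adjusted p = 0.000384). The median log2 fold change of the members was -0.14 in cKO-E, with 4 above and 6 below 0, and 0.07 in dKO-E, with 6 above and 4 below 0, beside medians over all genes of 0.02 and 0.01. Both comparisons use the same ctrl embryos, and the comparison between the mutants reuses the mutant embryos of both. Between the mutants, *Ccnd1* was called at an adjusted p under 0.05, as were 15% of all 11746 genes, and the median of the members was 0.21 in dKO-E against cKO-E, with 8 above and 2 below 0, beside 0.02 for all genes. At 0.001 no member was called between the mutants, where 3.13% of all genes were called and 2.75% were lower in dKO-E, and 0 members had separate ranges, where 6.76% of all genes did.

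**Figure D2:**
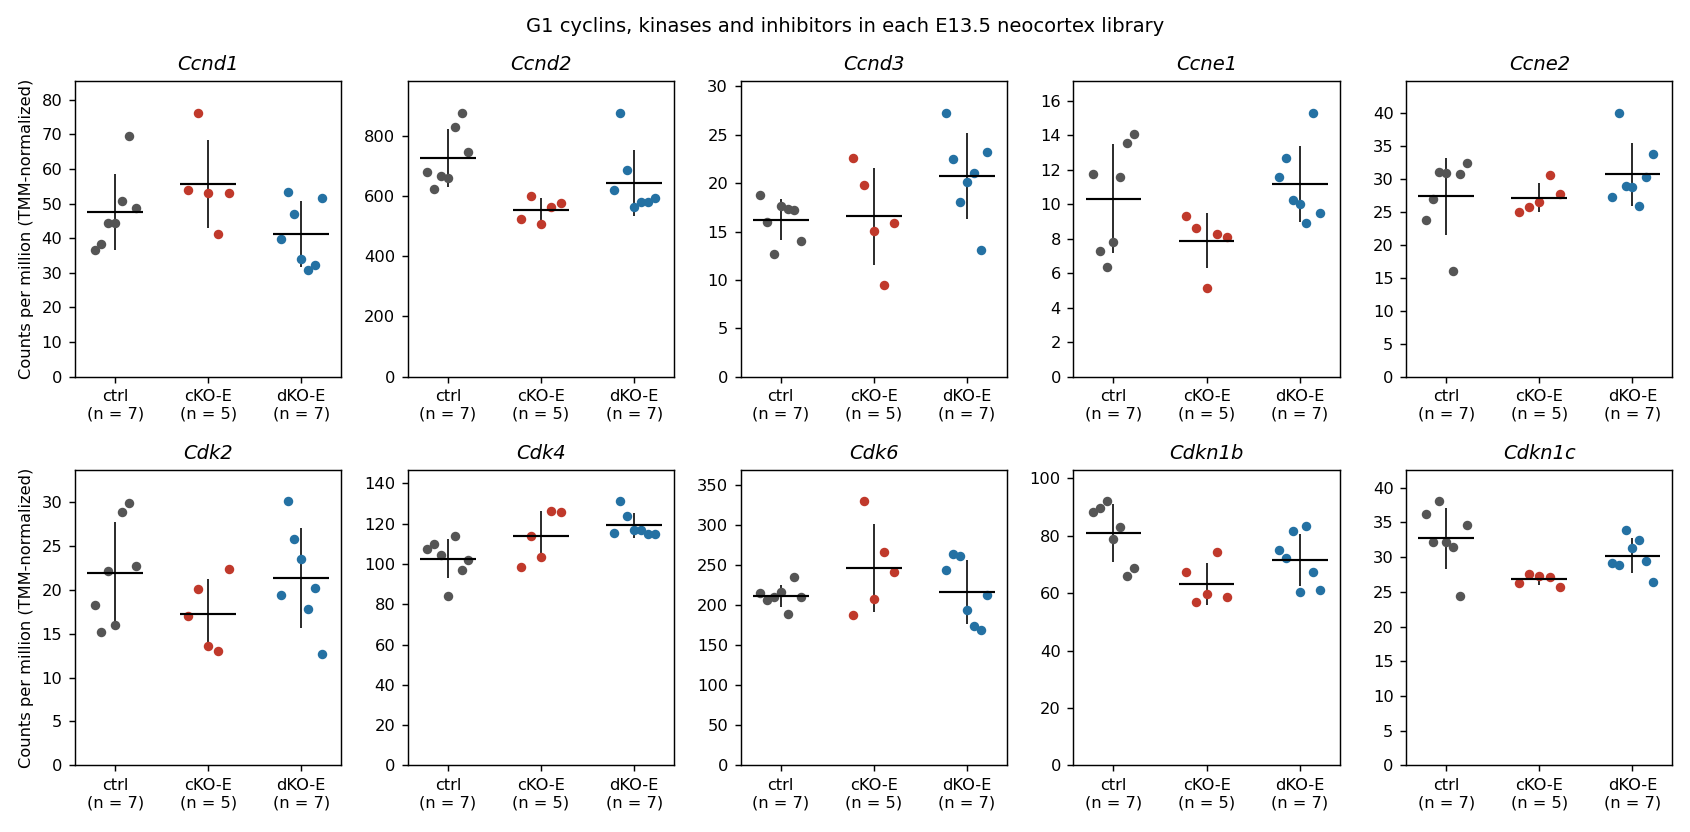
TMM-normalized CPM of each gene in every library, 1 panel per gene, with points for embryos, a horizontal line at the mean and a vertical line of 1 SD on either side. The 5 cKO-E embryos sit below all 7 ctrl embryos for *Ccnd2*, and the 7 dKO-E embryos sit above all 7 ctrl embryos for *Cdk4*.

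*Ccnd2*, on chromosome 6 (GRCm38, 127125162 to 127152193, minus strand), encodes cyclin D2 and was lower in cKO-E than in ctrl. It stood at 522.7, 599.3, 507.9, 563.8 and 577.9 CPM in cKO-E embryos A to E, and at 621.7, 678.8 and 876.6 CPM in the lowest, median and highest ctrl embryo. All 5 cKO-E embryos were thus below all 7 ctrl embryos, as was the case in either direction for 8.17% of all genes. The means were 554 ± 38.2 CPM in cKO-E and 725 ± 95.5 CPM in ctrl, a fold of 0.767 (log2 fold change -0.38, SE 0.09, 95% interval -0.58 to -0.19, adjusted p = 0.00794 by edgeR's quasi-likelihood test). Within batch 1 the log2 fold change was -0.28 (adjusted p = 0.0222) and within batch 2 it was -0.51 (adjusted p = 0.00721).

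In dKO-E, *Ccnd2* ranged from 564.8 over a median of 593.6 to 876.1 CPM. The embryo at the top, dKO-E B, lay far above the other 6, which ended at 687.9 CPM, and 5 of the 7 were below every ctrl embryo. Embryos A to C of litter 1 were at 621.5, 876.1 and 687.9 CPM, of which A lay just below the lowest ctrl embryo at 621.7 CPM. Embryos D to G of litter 2, which gave no ctrl embryo, were at 564.8, 579.4, 580.6 and 593.6 CPM. The litters did not overlap, so that spread and litter cannot be told apart within dKO-E. The mean of 643 ± 111 CPM was within the spread of ctrl (log2 fold change -0.18, SE 0.10, adjusted p = 0.238), and the difference from cKO-E was 0.22 (SE 0.09, 95% interval 0.02 to 0.41, adjusted p = 0.138). With sex as a covariate the latter was 0.35 and called (adjusted p = 0.00532), as it was with total counts (0.27, adjusted p = 0.0477). Within litter 1, the litter that holds ctrl and dKO-E embryos, the direction against ctrl turned, by edgeR's quasi-likelihood test (log2 fold change 0.16, adjusted p = 0.617, 2 ctrl and 3 dKO-E embryos). Within batch 2 the difference from ctrl was -0.50 (adjusted p = 0.00701 by the same test). Both dKO-E embryos of that batch came from litter 2 and its ctrl embryos from litters 5 and 7, so that genotype and litter cannot be told apart there. Without dKO-E B, an embryo of litter 1, the difference was -0.25 and passed 0.05 (adjusted p = 0.0481 by the same test).

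Ctrl embryos differed among themselves by batch. *Ccnd2* was at 829.1, 876.6 and 746.0 CPM in the 3 ctrl embryos of batch 2 and at 621.7 to 678.8 CPM in the 4 of batch 1, so that the batches did not overlap. The summed level of excitatory neuron markers was 2815 to 3078 CPM in the former and 3779 to 4408 CPM in the latter, and that of apical progenitor markers 1519 to 1611 and 1441 to 1515 CPM. dKO-E B, the embryo with the highest *Ccnd2* of its group, had the lowest neuronal sum of all libraries at 2422 CPM. It also had the highest sums of meningeal and mesenchymal markers (70.3 CPM, against 1.18 to 67.4 CPM in the others) and of endothelial markers (94.9 CPM, against 38.9 to 79.6 CPM), and a red blood cell sum of 109.8 CPM, exceeded by ctrl F at 115.0 CPM. The part of these marker differences in the result was not tested.

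*Ccnd1*, on chromosome 7 (144929931 to 144939925, minus strand), encodes cyclin D1 and was the only member called between the mutants. It was at 53.9, 76.3, 53.0, 41.3 and 53.2 CPM in cKO-E embryos A to E, and at 30.8, 39.8 and 53.4 CPM in the lowest, median and highest dKO-E embryo. Of the dKO-E embryos 4 lay below every cKO-E embryo and 6 lay below the cKO-E median, yet the ranges overlapped. The means were 41.2 ± 9.45 CPM in dKO-E and 55.5 ± 12.7 CPM in cKO-E, a fold of 0.727 (log2 fold change -0.46, SE 0.14, 95% interval -0.76 to -0.16, adjusted p = 0.0360 by edgeR's quasi-likelihood test, exact two-sided permutation p = 0.0429). In that direction 9.42% of all genes were called.

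The direction of the *Ccnd1* difference was the same in batch 1 (-0.48, adjusted p = 0.0900) and batch 2 (-0.37, adjusted p = 0.592), although neither passed alone. With sex as a covariate it was -0.35 and no longer called (adjusted p = 0.113). The call was also lost without cKO-E A, B or C or dKO-E A, D, E or F, with log2 fold changes of -0.49 to -0.31 and adjusted p of 0.0503 to 0.175. In ctrl, *Ccnd1* ranged from 36.5 over 44.4 to 69.7 CPM and overlapped both mutants, and neither difference from ctrl passed (cKO-E 0.30, SE 0.15, adjusted p = 0.196, and dKO-E -0.18, SE 0.15, adjusted p = 0.466). The latter turned to 0.10 within batch 1 and to 0.33 with litter as a block, and the former was 0.59 within batch 1 (adjusted p = 0.00691) and -0.21 within batch 2 (adjusted p = 0.587). *LTO1*, a gene on the opposite strand, shares 1100 exonic bases with *Ccnd1*, and its own log2 fold change between the mutants was -0.15 (adjusted p = 0.572). The strand setting of the counting is not given in the sources used here, so reads from this overlap cannot be assigned with certainty.

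*Ccnd3*, which encodes the third D cyclin, had a mean of 16.2 ± 2.16 CPM in ctrl, 16.6 ± 5.02 CPM in cKO-E and 20.8 ± 4.44 CPM in dKO-E. Of the dKO-E embryos 5 lay above every ctrl embryo, and the log2 fold change was 0.31 (SE 0.14, adjusted p = 0.143). It was the shallowest D cyclin, with 8 to 143 counts per library, and its difference from ctrl was 0.11 in cKO-E (SE 0.16, adjusted p = 0.686). *Bysl*, on the opposite strand, shares 361 exonic bases with it and was itself 0.52 higher in cKO-E than in ctrl (adjusted p = 0.0326).

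*Ccnd2* supplied most D cyclin counts in every library. The share of *Ccnd1* among all D cyclin counts was 9.0%, 10.97%, 9.21%, 6.72% and 8.22% in cKO-E embryos A to E, with a mean of 8.82 ± 1.55%. In ctrl it ran from 4.98 over 6.02 to 7.23%, and in dKO-E from 4.88 over 5.61 to 7.73%. The cKO-E embryos other than D exceeded every embryo of the other groups, while cKO-E D, with 521 D cyclin counts, had an exact (Clopper-Pearson) 95% interval of 4.72 to 9.22%. These intervals cover counting error alone, and the shares were not tested. The share of *Ccnd3* was 2.08 ± 0.360% in ctrl, 2.65 ± 0.804% in cKO-E and 2.98 ± 0.697% in dKO-E.

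**Figure D3:**
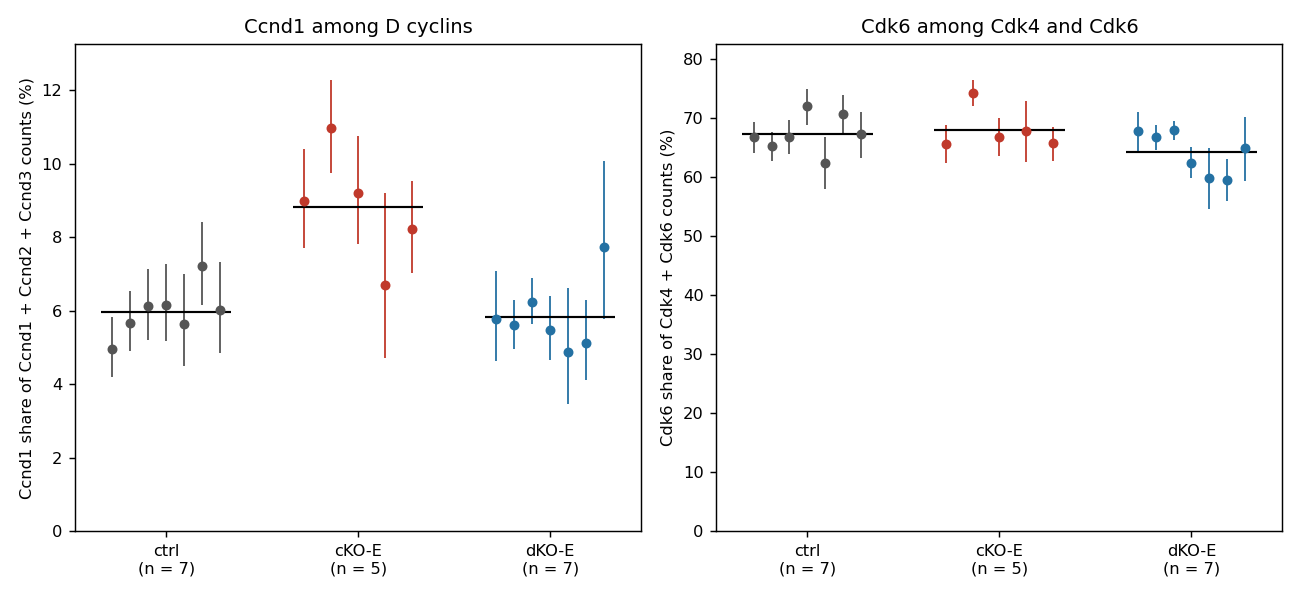
Left, percent of D cyclin counts that came from *Ccnd1* in each library, and right, percent of *Cdk4* plus *Cdk6* counts that came from *Cdk6*, with exact 95% intervals for counting error and a black line at the group mean. The *Ccnd1* share averages 8.82% in cKO-E against 5.98% in ctrl and 5.84% in dKO-E, whereas the *Cdk6* share averages 68.1%, 67.4% and 64.2%.

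The E cyclins were low and variable. *Ccne1*, an activator of CDK2, was at 9.32, 8.60, 5.16, 8.26 and 8.13 CPM in cKO-E embryos A to E, from 6.34 over 11.6 to 14.1 CPM in ctrl, and from 8.91 over 10.2 to 15.3 CPM in dKO-E. The ctrl range thus held all dKO-E embryos but the highest and all cKO-E embryos but C. The cKO-E mean was 7.89 ± 1.6 CPM and the ctrl mean 10.3 ± 3.15 CPM, a difference that did not pass (log2 fold change -0.33, SE 0.24, adjusted p = 0.392), and 6 of the 7 dKO-E embryos lay above every cKO-E embryo (log2 fold change 0.52, SE 0.18, 95% interval 0.13 to 0.91, adjusted p = 0.0659). With sex as a covariate the latter difference was 0.67 and called (adjusted p = 0.0221). *Ccne1* had 7 to 81 counts per library, and counting error alone would give a coefficient of variation of 19.5% in ctrl, where 30.5% was observed.

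*Ccne2* was the more abundant E cyclin, with 72.3 ± 8.75% of E cyclin counts in ctrl, 77.5 ± 4.14% in cKO-E and 73.3 ± 3.85% in dKO-E. Its difference from ctrl was -0.05 in cKO-E (SE 0.13, 95% interval -0.33 to 0.23, adjusted p = 0.863) and 0.15 in dKO-E (SE 0.13, 95% interval -0.11 to 0.42, adjusted p = 0.452). *Ints8*, on the opposite strand, shares 609 exonic bases with it and was itself lower in cKO-E than in ctrl by edgeR's quasi-likelihood test (-0.28 on the log2 scale, adjusted p = 0.00345).

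*Cdk4*, the D cyclin kinase on chromosome 10 (127063534 to 127067920, plus strand), was higher in dKO-E than in ctrl. It ranged from 114.9 over 116.7 to 131.1 CPM in dKO-E and from 84.1 over 104.3 to 113.7 CPM in ctrl. All 7 dKO-E embryos were above all 7 ctrl embryos, and the groups did not overlap in either direction for 4.23% of all genes. The means were 119 ± 6.06 and 103 ± 9.79 CPM, a fold of 1.16 (log2 fold change 0.21, SE 0.06, 95% interval 0.08 to 0.35, adjusted p = 0.0301 by edgeR's quasi-likelihood test, exact two-sided permutation p = 0.000583, the smallest that 7 against 7 allows). The permutation ignores litter, and the 7 dKO-E embryos came from 2 litters. Within batch 1 the log2 fold change was 0.26 (adjusted p = 0.0729) and within batch 2 it was 0.12 (adjusted p = 0.645). With litter as a block it was 0.19 (adjusted p = 0.333), and without ctrl C or D or dKO-E B or C the adjusted p was 0.0508 to 0.0556.

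In cKO-E, *Cdk4* was at 98.5, 114.1, 103.5, 126.2 and 126.0 CPM in embryos A to E. Of these 3 lay above every ctrl embryo and the others inside the ctrl range (log2 fold change 0.14, SE 0.09, adjusted p = 0.306), and the difference between the mutants did not pass (0.08, SE 0.07, 95% interval -0.07 to 0.24, adjusted p = 0.514). *Tspan31*, on the opposite strand, shares 641 exonic bases with *Cdk4* and its own difference between dKO-E and ctrl was 0.08 on the log2 scale (adjusted p = 0.802).

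Promoter windows from RefSeq (GRCm38.p6) were found for 6 of the 10 members, *Ccnd3*, *Ccne1*, *Cdk2*, *Cdk4*, *Cdk6* and *Cdkn1b*. The 250 bases before the start are shown for *Cdk4* and *Cdkn1b*, the members with a window that passed an adjusted p of 0.05 against ctrl, at chr10:127063285-127063534 and chr6:134920151-134920400, both on the plus strand. Capitals mark the E-box CACGTG in *Cdk4* and the GC box GGGCGG in *Cdkn1b*.
Cdk4: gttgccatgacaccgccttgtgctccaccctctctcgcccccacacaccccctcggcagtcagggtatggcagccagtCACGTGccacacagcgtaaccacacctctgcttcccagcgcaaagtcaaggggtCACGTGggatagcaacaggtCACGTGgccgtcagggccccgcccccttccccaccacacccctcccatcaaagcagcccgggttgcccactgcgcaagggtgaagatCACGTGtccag
Cdkn1b: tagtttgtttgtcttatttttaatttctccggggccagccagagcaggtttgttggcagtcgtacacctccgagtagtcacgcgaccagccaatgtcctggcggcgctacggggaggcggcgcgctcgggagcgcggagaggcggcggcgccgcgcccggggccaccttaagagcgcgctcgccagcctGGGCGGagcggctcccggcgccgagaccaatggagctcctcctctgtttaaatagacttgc

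The *Cdk4* window held 4 matches to CACGTG, beginning 172, 118, 98 and 11 bases before the start, and at least 1 match was found in 6.02% of 32851 windows of the same length. The *Cdkn1b* window held 1 match to GGGCGG, which begins 61 bases before the start and occurs in 32.7% of windows. The E2F pattern TTTNNCGC, present in 4.28% of windows, was found once each in *Cdk6* and *Cdk2*, and the YY1 pattern AANATGGC, present in 3.91% of windows, in none of the members' windows. *Cdk6* also held a CACGTG, and GGGCGG was found in each of the other windows but that of *Cdk6*. Both strands were searched and the matches do not overlap between patterns. The patterns were chosen after the sequences had been read, and a match is a description of the sequence alone.

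*Cdk6*, the other D cyclin kinase, varied more within the mutants than within ctrl. It was at 188.4, 330.0, 208.5, 266.6 and 241.9 CPM in cKO-E embryos A to E, from 189.4 over 210.4 to 235.2 CPM in ctrl, and from 169.3 over 213.0 to 263.9 CPM in dKO-E. Embryos of both mutants lay on either side of the ctrl range, and no difference passed the test (cKO-E 0.22, SE 0.11, adjusted p = 0.179, and dKO-E 0.04, SE 0.09, adjusted p = 0.840). The coefficient of variation was 6.42% in ctrl, 22.4% in cKO-E and 18.4% in dKO-E. In dKO-E, embryos A to C of litter 1 were at 243.7, 263.9 and 261.9 CPM, above every ctrl embryo. Embryos D to G of litter 2 were at 194.6, 174.2, 169.3 and 213.0 CPM, so that spread and litter cannot be told apart there. In cKO-E the highest value came from embryo B.

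*Cdk2*, the kinase of the E cyclins, had a mean of 21.9 ± 5.87 CPM in ctrl, 17.2 ± 4.05 CPM in cKO-E and 21.3 ± 5.68 CPM in dKO-E. It did not pass in cKO-E (-0.24, SE 0.19, adjusted p = 0.454) or dKO-E (0.11, SE 0.17, adjusted p = 0.717) against ctrl. Between the mutants it was 0.36 higher in dKO-E (SE 0.17, 95% interval 0.01 to 0.70, adjusted p = 0.168), and with sex as a covariate 0.52 higher and called (adjusted p = 0.0370).

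*Cdkn1b*, on chromosome 6 (134920401 to 134925513, plus strand), encodes p27 and was lower in cKO-E. It was at 67.3, 56.8, 59.7, 74.3 and 58.6 CPM in cKO-E embryos A to E and from 66.0 over 82.8 to 91.9 CPM in ctrl. Of the cKO-E embryos 3 were below every ctrl embryo and all 5 were below the ctrl median. The means were 63.3 ± 7.33 and 80.9 ± 10.2 CPM, a fold of 0.762 (log2 fold change -0.39, SE 0.09, 95% interval -0.59 to -0.20, adjusted p = 0.00746 by edgeR's quasi-likelihood test). Within batch 1 the log2 fold change was -0.52 (adjusted p = 0.00144) and within batch 2, with 2 cKO-E and 3 ctrl embryos, it was -0.18 (adjusted p = 0.595). In dKO-E *Cdkn1b* ranged from 60.5 over 72.4 to 83.5 CPM, inside or below the ctrl range (log2 fold change -0.19, SE 0.09, adjusted p = 0.143).

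*Cdkn1c*, which encodes p57, was at 26.3, 27.5, 27.3, 27.1 and 25.7 CPM in cKO-E embryos A to E. Counting error alone would give a coefficient of variation of 13.7% there, where 2.77% was observed, so that nothing is read from this closeness. *Cdkn1c* ran from 24.4 over 32.2 to 38.0 CPM in ctrl, where only embryo H lay below the cKO-E values. In dKO-E it ran from 26.4 over 29.5 to 33.9 CPM. The difference of cKO-E from ctrl did not pass an adjusted p of 0.05 (log2 fold change -0.30, SE 0.10, 95% interval -0.52 to -0.08, adjusted p = 0.0522), and neither did that of dKO-E (-0.12, SE 0.09, adjusted p = 0.416). The former lay close to the threshold, since with -0.30 in each case it passed by the likelihood-ratio test (adjusted p = 0.0381), with RLE factors (adjusted p = 0.0499), with batch as a covariate (adjusted p = 0.0399) and in 1 fit over all libraries (adjusted p = 0.0324), and did not by DESeq2 (adjusted p = 0.0909) or with a litter block (-0.31, adjusted p = 0.163). The share of *Cdkn1c* in the counts of both inhibitors was 28.8 ± 2.34% in ctrl, 29.9 ± 2.41% in cKO-E and 29.8 ± 2.14% in dKO-E.

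**Figure D4:**
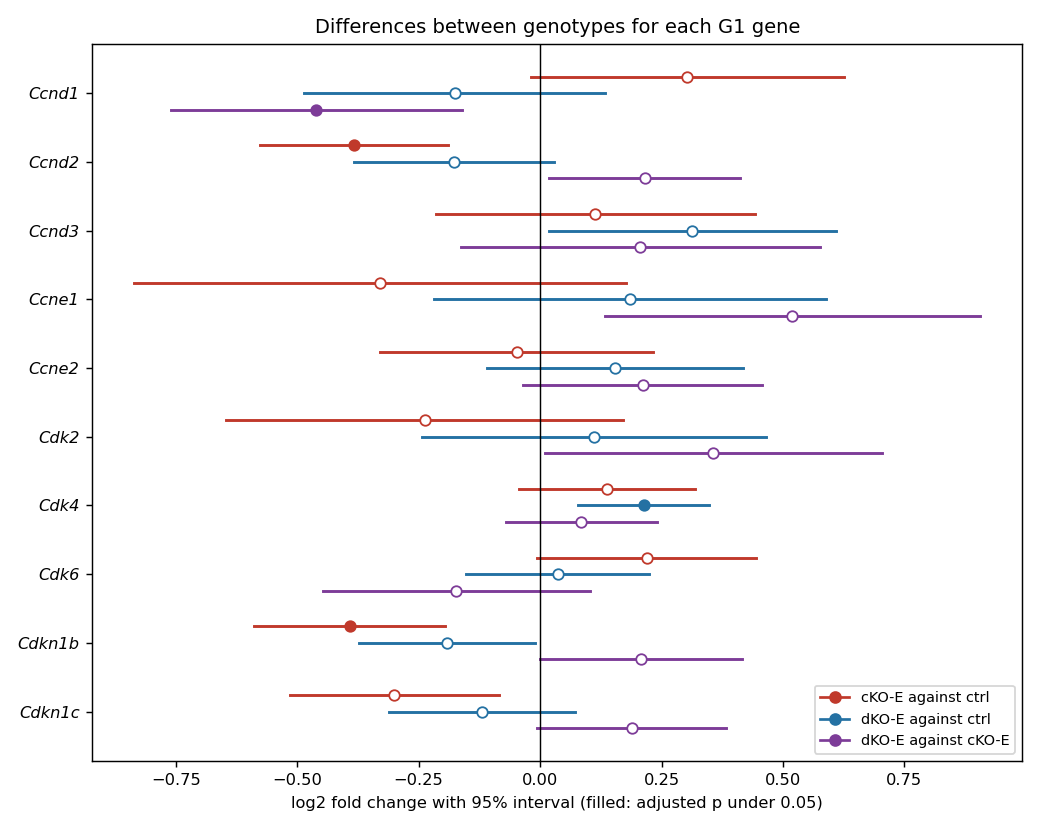
log2 fold change of each gene in the 3 comparisons with its 95% interval from edgeR's quasi-likelihood fit, where filled points have an adjusted p under 0.05. Filled points are *Ccnd2* (-0.38) and *Cdkn1b* (-0.39) in cKO-E against ctrl, *Cdk4* (0.21) in dKO-E against ctrl and *Ccnd1* (-0.46) in dKO-E against cKO-E.

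Cell types are mixed in these libraries, so that fewer cells of a type and less RNA per cell cannot be told apart. The summed level of the apical progenitor markers, of which *Sox2* was listed at 0 in every library, was 1441 to 1611 CPM in ctrl, 1173 to 1513 CPM in cKO-E and 1271 to 1537 CPM in dKO-E. Of the 9 that could be tested, *Prom1* fell and *Fabp7* rose in cKO-E at 0.001, where 2.32% of all genes fell and 1.06% rose, and at 0.05 there were 5 that fell, where 9.88% of all genes did. Intermediate progenitor markers, with *Neurod1* listed at 0 in every library, summed to 359 to 459 CPM in ctrl, 297 to 388 CPM in cKO-E and 293 to 439 CPM in dKO-E. Of the 5 tested, 2 fell at 0.05 in cKO-E and 0 in dKO-E against ctrl, where 9.88% and 10% of all genes fell. The excitatory neuron sum was 2815 to 4408, 3531 to 4338 and 2422 to 3457 CPM in the same order, and 5 of 9 tested neuron markers fell in dKO-E against cKO-E, as did 4 of 4 tested interneuron markers, where 9.42% of all genes fell. *Tubb3* among the neuron markers was also listed at 0 in every library, so that the sum lacks it. Cajal-Retzius markers summed to 478 to 608 CPM in ctrl, 762 to 886 CPM in cKO-E and 413 to 590 CPM in dKO-E, and microglial markers to 6.52 to 16.7, 32.7 to 41.3 and 5.67 to 11.9 CPM. The part of these shifts in the values of the G1 genes was not tested.

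Ctrl H stood at an end of the ctrl range for several members at once. It had the highest *Ccnd1*, *Ccnd2*, *Cdk2* and *Cdk6* and the lowest *Cdkn1b* and *Cdkn1c* of its group. Its apical progenitor sum of 1611 CPM was the highest, and its neuronal sum of 2815 CPM and interneuron sum of 9.50 CPM were the lowest, among ctrl embryos. Without it the log2 fold changes in cKO-E were -0.33 for *Ccnd2* (adjusted p = 0.0102), -0.43 for *Cdkn1b* (adjusted p = 0.00219) 0.42 for *Ccnd1* (adjusted p = 0.0261) and -0.35 for *Cdkn1c* (adjusted p = 0.0130), the last 2 of which then passed 0.05.

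The rest of the G1/S pathway was followed in 51 listed genes, 48 of which could be tested. Against ctrl, 1 gene fell in cKO-E and 1 in dKO-E at 0.001, *Mcm2* in each, and none rose, where 2.32% and 2.34% of all genes fell. *Mcm2*, a subunit of the replicative helicase, was at 118 ± 22.4 CPM in ctrl, 66.2 ± 8.58 CPM in cKO-E and 70.6 ± 12.4 CPM in dKO-E. The log2 fold changes were -0.79 (SE 0.13, adjusted p = 0.000434) and -0.71 (SE 0.12, adjusted p = 0.000537), and the difference between the mutants did not pass (0.09, SE 0.11, adjusted p = 0.643). The call in cKO-E was lost, leaving 0 pathway genes, without cKO-E A, B, C or D or ctrl F, and that in dKO-E without any of dKO-E A, C, D, E, F and G or ctrl A, F and I. With the threshold at 0.05, cKO-E had 2 pathway genes above and 4 below ctrl, and dKO-E had 4 above and 1 below, where 7.31% of all genes were above and 9.88% below in cKO-E, and 5.45% above and 10% below in dKO-E.

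In cKO-E, 9 of the 10 E2F and DP factors were below 0, with a median log2 fold change of -0.24. The activators *E2f2* (-0.56, SE 0.13, adjusted p = 0.00574) and *E2f3* (-0.34, SE 0.10, adjusted p = 0.0306) passed 0.05. All 17 tested E2F target genes of the G1/S transition were below 0, beside 53.4% of all genes above 0. They ran from -0.79 to -0.0003 with a median of -0.23, and besides *Mcm2* only *Mcm6* passed 0.05 (-0.37, SE 0.10, adjusted p = 0.0161). In batch 1 the targets summed to 986, 1127 and 941 CPM in cKO-E A, B and C, and to 1079 to 1248 CPM in ctrl. In batch 2 the sums were 1014 and 1233 CPM in cKO-E D and E, and 1346 to 1529 CPM in ctrl. *Rb1*, the RB gene itself, was at 237 ± 9.63 CPM against 214 ± 12.7 CPM in ctrl (0.15, SE 0.05, adjusted p = 0.0472), and *Ubac1*, part of a p27 ubiquitin ligase, was 0.41 higher (SE 0.11, adjusted p = 0.0148).

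In dKO-E against ctrl, the E2F and DP factors centred on 0, with a median of -0.01 and 5 on either side, and 11 of the 17 E2F targets were above 0. By batch, the summed E2F and DP factors were 876 to 977 CPM in dKO-E and 816 to 845 CPM in ctrl in batch 1, and 910.5 to 924 CPM and 882 to 1009 CPM in batch 2. The summed E2F targets were 1194 to 1528 CPM in dKO-E and 1079 to 1248 CPM in ctrl in batch 1, and 1178 to 1268 CPM and 1346 to 1529 CPM in batch 2, where dKO-E lay below ctrl. The dKO-E embryos of batch 2 were all of litter 2. Those of batch 1 were of litter 1 apart from D, which was at 1229 CPM, so that batch and litter largely coincide in dKO-E. The helicase genes *Mcm5* (0.38, SE 0.10, adjusted p = 0.0167) and *Cdc45* (0.40, SE 0.10, adjusted p = 0.0127) and the CDK-activating kinase subunit *Mnat1* (0.23, SE 0.06, adjusted p = 0.0122) were higher at 0.05, as was *Ubac1* (0.33, SE 0.11, adjusted p = 0.0483). The turnover genes of cyclins and p27 other than *Ubac1*, which encode SCF and cullin ligase parts such as *Skp2*, *Cul1* and *Fbxw7*, did not pass in either mutant against ctrl.

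Between the mutants, 11 of the 48 pathway genes rose and 1 fell in dKO-E against cKO-E, where 5.59% of all genes rose and 9.42% fell. Those that rose were *E2f2*, *E2f3*, *Tfdp1*, *Rbl1*, *Mnat1*, *Cdk1*, *Skp2*, *Mcm5*, *Rrm2*, *Cdc45* and *Uhrf1*, and *Rb1* fell. *E2f3* moved with the smallest p, from 224 ± 17.0 CPM in cKO-E to 298 ± 18.7 CPM in dKO-E (0.40, SE 0.06, adjusted p = 0.000261), and *Rb1* went from 237 ± 9.63 to 207 ± 15.4 CPM (-0.20, SE 0.06, adjusted p = 0.0303). All 17 tested E2F targets were above 0, with a median of 0.22, beside 54.1% of all genes. The cKO-E embryos are those compared with ctrl above, so that this direction is not independent of the one found there. With sex as a covariate 22 pathway genes were called in place of 12, and within batch 2 alone none was. There were 6 without cKO-E A, 5 without dKO-E B and 3 without cKO-E C.

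**Figure D5:**
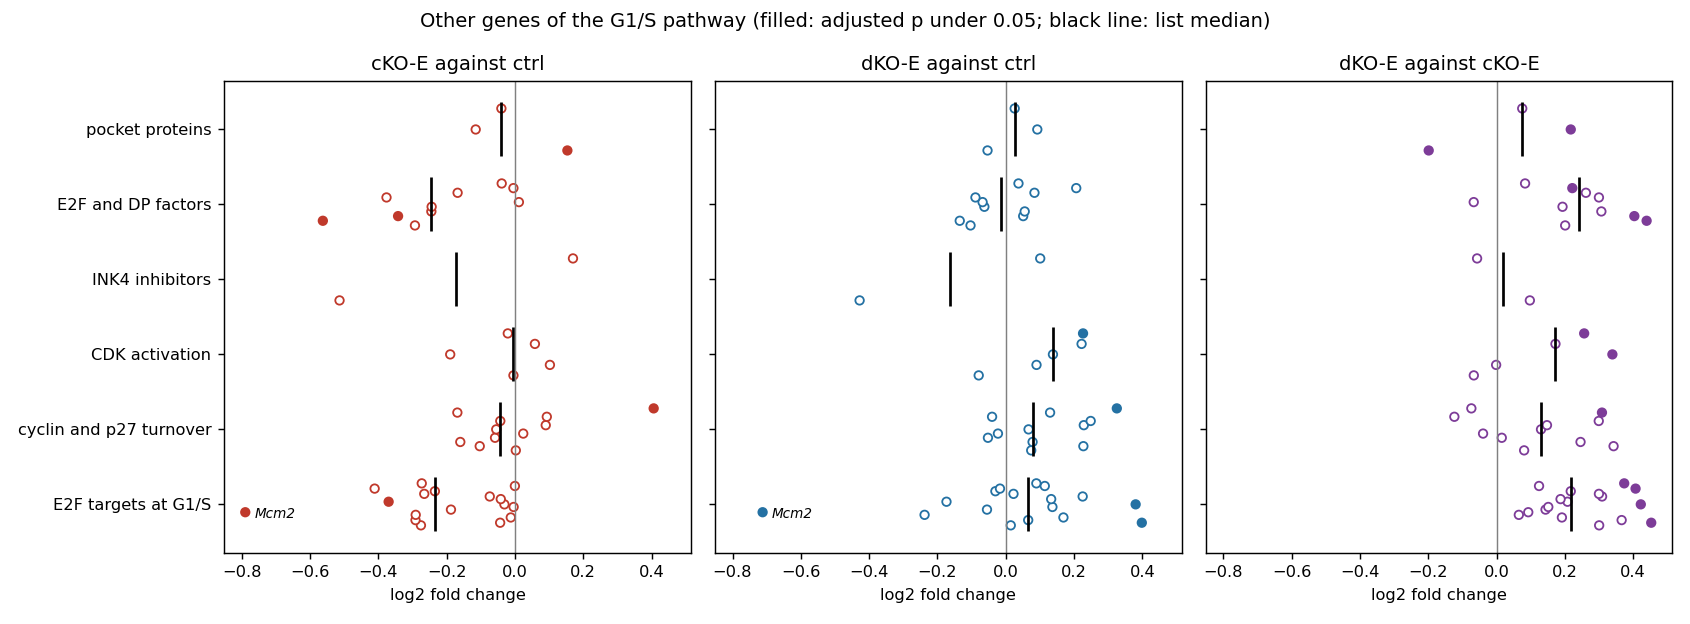
log2 fold change of the tested genes of 6 pathway lists in the 3 comparisons, where filled points have an adjusted p under 0.05 and black lines are list medians. The E2F target medians are -0.23 in cKO-E against ctrl, 0.07 in dKO-E against ctrl and 0.22 in dKO-E against cKO-E, and *Mcm2* stands alone at the left in both comparisons with ctrl.

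The inhibitors of the INK4 family, which block CDK4 and CDK6, were scarce. *Cdkn2c* was at 13.8 ± 2.41 CPM in ctrl, 10.2 ± 4.10 CPM in cKO-E and 10.4 ± 3.83 CPM in dKO-E, and *Cdkn2d* at 5.88 ± 2.01, 6.66 ± 1.64 and 5.91 ± 2.03 CPM, and neither passed a test. *Cdkn2a* averaged under 0.1 CPM in each group, and *Cdkn2b* was listed at 0 in every library, as were *Sox2*, *Tubb3*, *Neurod1* and *Cdt1*, so that nothing is read from its 0.

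Over all 19 embryos, the genes whose log2 CPM followed the members most closely were found among 8350 genes with at least 10 counts in every library. For *Ccnd2* these were *Gpc4* (r = 0.94) and *Cdk5rap2* (r = 0.92), and for *Ccnd1* *Hmga2* and *Pappa* (r = 0.78 each). *Cdk2* was closest to *Cdk1* (r = 0.87), *Cdk4* to *Adrm1* (r = 0.81), *Cdk6* to *Sdhd* (r = 0.81) and *Ccne2* to *Uqcrc1* (r = 0.87). *Cdkn1b* and *Cdkn1c* shared the closest gene, *Carmil3* (r = 0.81 and 0.82). After each group's mean was removed, r was 0.89 for *Ccnd2* with *Gpc4*, 0.90 for *Cdk2* with *Cdk1*, and 0.73 and 0.75 for the inhibitors with *Carmil3*. It was 0.77 for *Ccnd1* with *Hmga2*, 0.73 for *Cdk4* with *Adrm1*, 0.84 for *Cdk6* with *Sdhd* and 0.87 for *Ccne2* with *Uqcrc1*. Each pair was picked as the closest among these many genes over 19 embryos, and the r that chance would give was not tested. The embryos share batches, litters and depth, and *Ccnd3* and *Ccne1* were too shallow to be ranked.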

How the data were processed

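Cortical RNA came from 19 embryos at E13.5 (7 ctrl, 5 cKO-E, 7 dKO-E). The authors prepared Click-seq libraries after removal of ribosomal RNA, trimmed reads with cutadapt 1.13, aligned them to mm10 with STAR 2.5.2a, removed duplicate molecules with UMI-tools 0.5.3 and counted reads per gene with HTSeq 0.6.1p1. The deposited values are these raw counts. Rows that name no gene held 23.3 to 31.8% of each library and were left out. Symbols, exon lengths and positions came from GENCODE M21 (GRCm38), which held 51633 of 51912 identifiers.

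Each pair of groups was fitted alone with edgeR 4.0.16 (R 4.3.3): filterByExpr at a minimum count of 10, TMM factors, no covariates, quasi-likelihood test, Benjamini-Hochberg adjustment over all genes tested. Calls were made at 0.001 against ctrl, the threshold of the study, which used the likelihood-ratio test, and at 0.05 between mutants. The standard error is the log2 fold change over the root of F. CPM used TMM factors over all 19 libraries. Permutation tests were exact and two-sided on log2(CPM + 0.5), and ignored litter. Alternatives included DESeq2 1.42.0, other filters and scalings, covariates, blocks, batches and omitted libraries. The scripts were tested on simulated data. Members and lists were chosen with earlier results of these data known. Genes named are the members, every called gene of the pathway lists, and the genes most like a member, and other pathway genes, *Cdkn1a*, the genes listed at 0, *Prom1*, *Fabp7* and overlapping neighbours were named after their values were seen. Embryos were separate animals, some of 1 litter, so p-values measure the spread between embryos. Sex, batch and litter are as labelled.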

Additional observations from a re-analysis of the deposited data

Results flagged for a closer look

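In 30 groups of member values tested for a sample far from the others, of which chance would flag about 1 in 20, 3 were flagged. *Ccnd1* in ctrl H was at 69.7 CPM, against 36.5 to 50.7 CPM in the other ctrl embryos. *Ccnd2* in dKO-E B was at 876 CPM, against 565 to 688 CPM in the other dKO-E embryos. *Ccne1* in cKO-E C was at 5.16 CPM, from 14 counts, against 8.13 to 9.32 CPM in the other cKO-E embryos. The difference between the mutants was tested for every member, and *Ccnd1* alone passed, at -0.46 on the log2 scale (dKO-E minus cKO-E).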

How the results depend on the processing

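Against ctrl the members stayed at 0 calls under every alternative and without any library, apart from 1 in cKO-E by the likelihood-ratio test (*Cdkn1b*) and 1 with batch as a covariate (*Ccnd2*), and 2 in cKO-E and 1 in dKO-E at a threshold of 0.05. Between the mutants the 1 member called, *Ccnd1*, was lost in favour of 2 with total counts (*Ccnd2* and *Ccne1*, higher) and of 3 with sex as a covariate (*Ccnd2*, *Ccne1* and *Cdk2*, higher), and there were 0 in 1 fit over all libraries, within batch 1, within batch 2 and at 0.001. Leaving out each library in turn gave 0 to 0 members against ctrl in both mutants and 0 to 1 between the mutants. The causes of these shifts were not tested.

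Of all genes, 394 were called in cKO-E. The likelihood-ratio test gave 836, DESeq2 718, no filter 658, batch as a covariate 659, litter as a block 198, batch 2 alone 30, and a threshold of 0.05 2004, while females alone gave 126 and litters 4, 5 and 7 alone 57, both chosen after seeing the data. Without 1 library it was 235 to 401, and it was lowest without cKO-E A (256), B (251) or C (235). In dKO-E, 294 became 615 by the likelihood-ratio test, 546 by DESeq2, 37 with a litter block, 37 with a replicate block, 87 within batch 1, 14 within batch 2 and 1759 at 0.05. Added after seeing the data, males alone gave 103 and litter 1 alone 0 by edgeR, with 2112 genes at an unadjusted p under 0.05. Without 1 library it was 190 to 305, the former without dKO-E F. Between the mutants, 1763 became 305 within batch 2 and 368 at 0.001, and 1135 to 1830 without 1 library, the former without cKO-E C.

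The 1 pathway gene called in cKO-E became 2 by the likelihood-ratio test and 6 at 0.05, and 0 with total counts, within batch 2, without libraries under 1000000 counts, in females and in litters 4, 5 and 7. The 1 in dKO-E became 5 at 0.05, and 0 with total counts, batch as a covariate, a litter block, a replicate block, batch 1, without libraries under 1000000 counts, in males and in litter 1. Between the mutants, 12 became 22 with sex as a covariate, 0 within batch 2 and 1 at 0.001. Without 1 library these counts were 0 to 1, 0 to 1 and 3 to 13.

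Directions that turned were those of members not called. In cKO-E against ctrl, log2 fold changes within batch 2 were -0.21 for *Ccnd1*, -0.22 for *Ccnd3* and 0.079 for *Ccne2*, *Ccnd3* was -0.020 without cKO-E A, and *Ccne2* was 0.037 in females. In dKO-E against ctrl they were 0.33 for *Ccnd1* and 0.17 for *Ccnd2* with a litter block, 0.33 and 0.16 in litter 1, 0.10 and 0.064 within batch 1, -0.0038 for *Ccnd3*, -0.64 for *Cdk2* and -0.20 for *Cdk6* within batch 2, -0.0043 and -0.011 for *Cdk6* without dKO-E B or C, and -0.017 for *Ccne2* and -0.038 for *Cdk6* in males. Between the mutants, *Cdk2* was -0.16 and *Cdk4* -0.15 within batch 2.

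Replicate letters did not pair the embryos, since same-lettered embryos of different groups correlated at -0.42 to 0.17 and mostly came from different litters. A replicate block left the members called at 0.001 against ctrl, and at 0.05 between the mutants, as they were, with 341 genes called in cKO-E and 37 in dKO-E. At 0.05 against ctrl it added *Ccnd1* in cKO-E (0.54, adjusted p = 0.0140) and *Cdkn1b* in dKO-E (-0.29, adjusted p = 0.0326) and lost *Cdk4* in dKO-E (0.22, adjusted p = 0.116), by edgeR's quasi-likelihood test. Total counts in place of TMM moved the median of all genes in dKO-E against ctrl to 0.10. Depth limits *Ccne1* and *Ccnd3*, with as few as 7 and 8 counts in cKO-E D. Batch 2 holds 2 embryos of each mutant, and those of dKO-E both came from litter 2.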
